A study of Mus musculus with 14 samples.

Results

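The genes described here are 10 genes of the transforming growth factor beta (TGF-beta) response and of contractile cells: Acta2, Tagln, Cnn1, Tpm1, Ctgf, Thbs1, Tgfbi, Tnc, Postn and Loxl2. They were chosen by symbol, with earlier results of these data known. Counts of these genes set beside the shares of all genes are therefore descriptions only. All 10 have a row in the expression table, out of 13180 genes. They were followed across 4 mouse cell populations, each with 1 poly(A) RNA-seq library. DR-ESC, the differentiation-resistant cells, were GFP-positive on day 8 of neural differentiation in N2B27 medium and were then returned to stem cell medium, and the labels do not say whether feeder cells were present. NPC(GFP-) are the GFP-negative cells of the same day 8 differentiation, labelled as neural progenitors. Oct4-GFP-H-ESC are embryonic stem cells of the starting line gated for strong reporter fluorescence. Oct4-GFP-ESC is that starting line, for which the labels name no sort, in serum with 10 ng/ml of the cytokine LIF and on fibroblast feeders treated with mitomycin C. The study's title concerns TGF-beta signalling and the tumorigenicity of such cells. All populations come from this line, in which a green fluorescent protein reports Oct4, and no genotype beyond the reporter is given.

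TGF-beta ligands bind a pair of serine/threonine kinase receptors, which phosphorylate SMAD transcription factors. In fibroblasts and smooth muscle this raises genes of the actin contractile apparatus and of the extracellular matrix, and it does so together with the serum response factor SRF, which binds the CArG box, and the YAP and TEAD factors, which read cytoskeletal tension. Mouse embryonic stem cells are commonly grown on fibroblast feeders, and feeder fibroblasts themselves express many genes of this response.

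RefSeq promoter windows of build GRCm38.p6 were at hand for 6 of the 10 genes: Acta2, Cnn1, Tpm1, Tgfbi, Tnc and Postn. The windows of 4 genes are shown, because Acta2, Tnc and Postn had some of the lowest ratios of DR-ESC to the stem cell libraries, and Tpm1 is a contractile gene that differed less. Capitals mark a CArG box with at most 1 mismatch, the TEAD motif GGAATG and the TATA-type motif TATATAA, each searched on both strands.
Acta2, chr19:34255324-34255623, minus strand: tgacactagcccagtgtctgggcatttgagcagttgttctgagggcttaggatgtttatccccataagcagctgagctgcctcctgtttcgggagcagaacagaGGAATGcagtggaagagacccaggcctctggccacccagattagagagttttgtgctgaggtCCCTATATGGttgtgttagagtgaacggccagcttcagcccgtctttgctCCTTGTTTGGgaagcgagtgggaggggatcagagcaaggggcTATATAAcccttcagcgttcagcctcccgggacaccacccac
Tpm1, chr9:67049164-67049463, minus strand: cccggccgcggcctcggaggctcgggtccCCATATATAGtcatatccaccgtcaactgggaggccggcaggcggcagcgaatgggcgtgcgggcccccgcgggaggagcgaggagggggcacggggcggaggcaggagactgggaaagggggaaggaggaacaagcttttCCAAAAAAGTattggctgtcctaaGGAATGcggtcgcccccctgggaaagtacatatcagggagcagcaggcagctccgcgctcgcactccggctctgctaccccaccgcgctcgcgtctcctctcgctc
Tnc, chr4:64046887-64047186, minus strand: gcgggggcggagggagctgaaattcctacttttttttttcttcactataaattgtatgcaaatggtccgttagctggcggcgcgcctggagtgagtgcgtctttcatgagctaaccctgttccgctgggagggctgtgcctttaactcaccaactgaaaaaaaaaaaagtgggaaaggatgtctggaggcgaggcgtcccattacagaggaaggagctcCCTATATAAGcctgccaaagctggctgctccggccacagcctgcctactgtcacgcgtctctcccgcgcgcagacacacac
Postn, chr3:54360857-54361156, plus strand: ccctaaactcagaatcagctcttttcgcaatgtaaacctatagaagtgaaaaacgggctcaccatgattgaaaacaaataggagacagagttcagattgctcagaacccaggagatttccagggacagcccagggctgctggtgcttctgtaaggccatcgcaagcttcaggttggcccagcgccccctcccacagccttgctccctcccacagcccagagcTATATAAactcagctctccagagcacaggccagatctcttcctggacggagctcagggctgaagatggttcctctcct
The Acta2 window holds a pair of CArG boxes with 1 mismatch each, 1 copy of GGAATG and 1 of TATATAA. Tpm1 also holds a pair of CArG boxes with 1 mismatch each and 1 copy of GGAATG. In Tnc the CArG match overlaps TATATAA, and in Postn TATATAA was the only match of these 3. The TATATAA of Acta2 begins 8 bases past the start given for its window, against 29 bases before it in Tnc and 28 in Postn. A CArG box with at most 1 mismatch is in 21.1% of 32851 such windows, and 2 or more are in 3.7%. GGAATG is in 14.7% and TATATAA in 3.24% of them, and a CArG box without mismatch, found in 1.63% of all windows, was in none of those of the 6 genes. The SMAD-type motif CAGAC, on either strand, is in 49.6% of all windows and in at least 1 window of Acta2, Cnn1, Tgfbi, Tnc and Postn. Tnc and Postn have 2 windows each in the table, and the 1 shown is the one that holds a marked motif. Their other windows, and those of Cnn1 and Tgfbi, held none of the 3 marked motifs. The start in each of the 4 windows shown lies inside the outer bounds of its gene.

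Marker genes set NPC(GFP-) apart from the other libraries. Pou5f1, the gene of Oct4, had 609 FPKM (fragments scaled to transcript length and to library depth) in DR-ESC, 0.276 in NPC(GFP-), 1037 in Oct4-GFP-H-ESC and 1881 in Oct4-GFP-ESC. For the library gated for strong reporter signal, Pou5f1 was below the starting line by less than 2-fold, with a log2 ratio of -0.86. Of 10 pluripotency markers in this comparison, 0 reached 2-fold. Their median was -0.59, and 0.03 once the running median of genes of like abundance was subtracted, so no direction is given for Pou5f1. Fabp7, a gene of neural progenitors, reached 168 FPKM in NPC(GFP-) but no more than 5.41 elsewhere, of which the highest was DR-ESC. The sum of FPKM over all genes lay between 345804 in NPC(GFP-) and 687303 in Oct4-GFP-ESC, and the read depth is unknown. Each population has 1 library, which allows neither a replicate check nor a test, so a gene is counted as higher or lower by size alone, at a log2((FPKM + 1) ratio) of at least 1 or at most -1, which is 2-fold. In bulk RNA, fewer cells of a type and less RNA per cell cannot be told apart.

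Among the contractile genes, Acta2 and Tagln had higher levels in both stem cell libraries than in DR-ESC and NPC(GFP-). Acta2 (chromosome 19, 34240336 to 34255585), which encodes alpha smooth muscle actin, had 4.35 FPKM in DR-ESC, 9.13 in NPC(GFP-), 87.7 in Oct4-GFP-H-ESC and 99.2 in Oct4-GFP-ESC. Tagln (chromosome 9, 45929628 to 45936058), which encodes transgelin, an actin-bundling protein, had 16.1 FPKM in DR-ESC, 16.4 in NPC(GFP-), 85.2 in Oct4-GFP-H-ESC and 129.8 in Oct4-GFP-ESC. For both genes the widest step in this order lay between NPC(GFP-) and Oct4-GFP-H-ESC. The log2 ratio of DR-ESC to Oct4-GFP-ESC was -4.23 for Acta2 and -2.93 for Tagln.

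Cnn1 and Tpm1 differed less than Acta2 and Tagln between DR-ESC and the stem cell libraries. Cnn1 (chromosome 9, 22099221 to 22109221), encoding calponin 1, an inhibitor of myosin ATPase activity in smooth muscle, had 2.38 FPKM in DR-ESC, 0.354 in NPC(GFP-), 3.98 in Oct4-GFP-H-ESC and 6.14 in Oct4-GFP-ESC. It was the least abundant contractile gene of the 4 in every library. Tpm1 (chromosome 9, 67022590 to 67049672), a tropomyosin that lies along actin filaments in muscle and other cells, had 68.1 FPKM in DR-ESC, 80.5 in NPC(GFP-), 119.8 in Oct4-GFP-H-ESC and 164 in Oct4-GFP-ESC. Tpm1 stayed the most abundant of the 10 genes in all 4 libraries. Its log2 ratio of DR-ESC to Oct4-GFP-ESC was -1.26, but -0.43 once the running median of genes of like abundance was subtracted, -0.82 with the median ratio rescaled to 0 and -0.48 with the sums of FPKM made equal. That of Cnn1 was -1.08, and -1.09 with that running median subtracted. It was -0.75 with the median ratio rescaled to 0, -0.49 with equal sums and -0.59 with a pseudocount of 5. The 2-fold size of DR-ESC against Oct4-GFP-ESC was thus not kept under every setting for either gene. In NPC(GFP-) against Oct4-GFP-ESC, Cnn1 was at -2.40 and kept the 2-fold size under every setting.

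**Figure D1:**
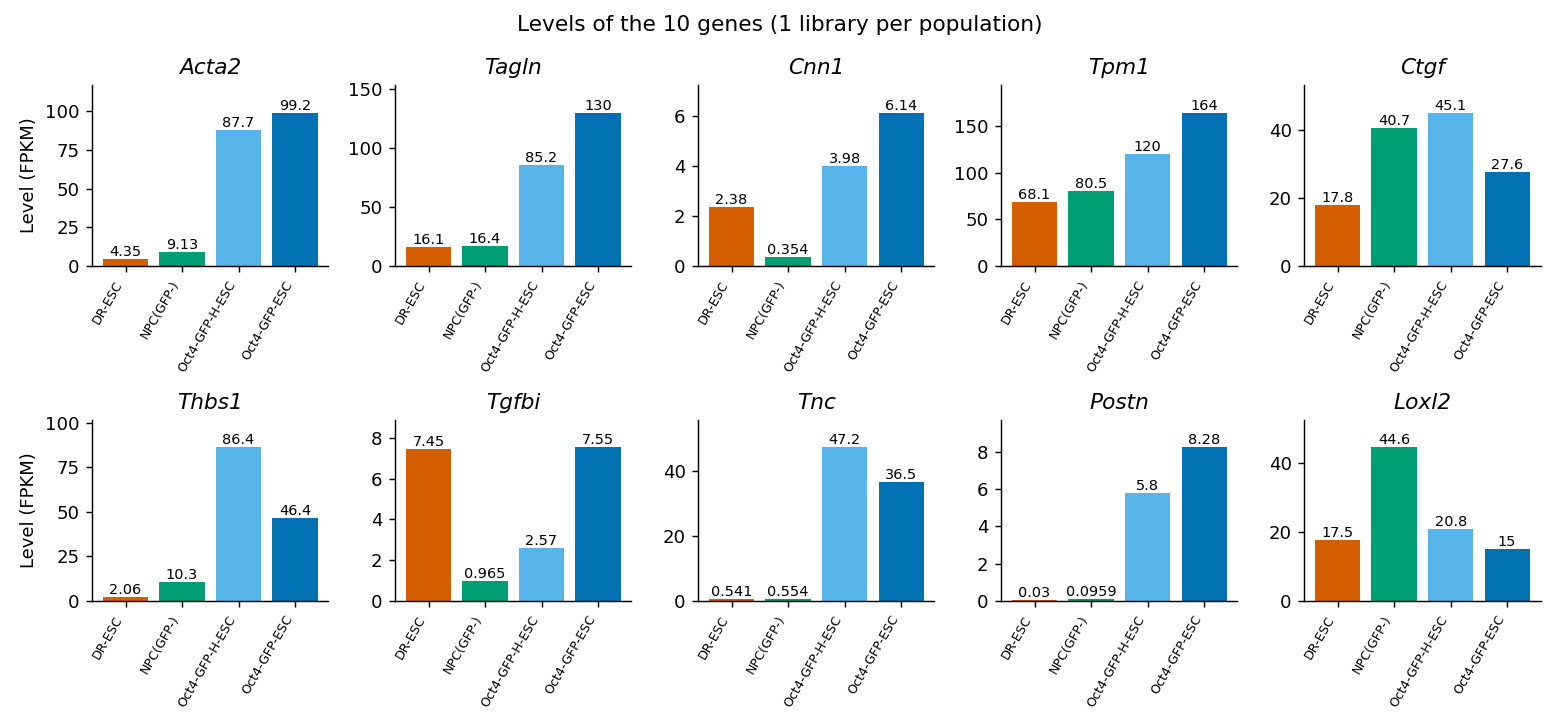
Level in FPKM (y axis, linear from 0, scaled per gene) of each of the 10 genes in DR-ESC, NPC(GFP-), Oct4-GFP-H-ESC and Oct4-GFP-ESC, 1 bar per library and no error bars because each population has 1 library. Acta2, Tagln, Thbs1, Tnc and Postn are lower in DR-ESC and NPC(GFP-) than in both stem cell libraries, while Loxl2 is highest in NPC(GFP-) at 44.6 FPKM.

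Among the secreted proteins, Tnc, Postn and Thbs1 were also higher in both stem cell libraries than in DR-ESC and NPC(GFP-). Tnc (chromosome 4, 63959785 to 64047015), which encodes tenascin C, a large matrix glycoprotein of wounds and embryonic mesenchyme, had 0.541 FPKM in DR-ESC, 0.554 in NPC(GFP-), 47.2 in Oct4-GFP-H-ESC and 36.5 in Oct4-GFP-ESC. Its range over the 4 libraries, 4.97 on the log2(FPKM + 1) scale, was reached by 1.07% of genes that reach 5 FPKM in some library. Postn (chromosome 3, 54359267 to 54391041), encoding periostin, a matrix protein that TGF-beta induces in fibroblasts, had 0.0300 FPKM in DR-ESC, 0.0959 in NPC(GFP-), 5.80 in Oct4-GFP-H-ESC and 8.28 in Oct4-GFP-ESC. Both genes were thus under 1 FPKM in DR-ESC and NPC(GFP-), and the 2 populations were not compared for them.

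Thbs1 was also low in DR-ESC and lay between DR-ESC and the stem cell libraries in NPC(GFP-). Thbs1 (chromosome 2, 118111876 to 118127133), encoding thrombospondin 1, a matricellular protein that can activate latent TGF-beta, had 2.06 FPKM in DR-ESC, 10.3 in NPC(GFP-), 86.4 in Oct4-GFP-H-ESC and 46.4 in Oct4-GFP-ESC. The log2 ratios were -1.89 for DR-ESC against NPC(GFP-), -2.07 for NPC(GFP-) against Oct4-GFP-ESC and 0.88 for Oct4-GFP-H-ESC over the starting line, the last below the 2-fold size.

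Ctgf, Loxl2 and Tgfbi did not follow that pattern. Ctgf (Ccn2 in RefSeq, chromosome 10, 24595442 to 24598683), a secreted CCN protein that is a target of both TGF-beta and YAP, had 17.8 FPKM in DR-ESC, 40.7 in NPC(GFP-), 45.1 in Oct4-GFP-H-ESC and 27.6 in Oct4-GFP-ESC. It was lowest in DR-ESC, and NPC(GFP-) and Oct4-GFP-H-ESC were near level. Loxl2 (chromosome 14, 69608692 to 69695834), a lysyl oxidase that crosslinks collagen, had 17.5 FPKM in DR-ESC, 44.6 in NPC(GFP-), 20.8 in Oct4-GFP-H-ESC and 15.0 in Oct4-GFP-ESC. The DR-ESC level of Loxl2 lay between those of the stem cell libraries, and NPC(GFP-) stood above the other libraries by 2-fold or more in the comparisons with DR-ESC and Oct4-GFP-ESC.

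Tgfbi (chromosome 13, 56609586 to 56639359), named for its induction by TGF-beta and encoding a matrix protein related to periostin, had 7.45 FPKM in DR-ESC, 0.965 in NPC(GFP-), 2.57 in Oct4-GFP-H-ESC and 7.55 in Oct4-GFP-ESC. DR-ESC and Oct4-GFP-ESC were near level for Tgfbi, with a log2 ratio of -0.02 that turned to 0.38 with the median ratio rescaled to 0, 0.70 with equal sums and 0.10 with the abundance trend removed. Tgfbi was the only gene of the 10 with a higher level in DR-ESC than in Oct4-GFP-H-ESC by 2-fold, and the only one lower by 2-fold in Oct4-GFP-H-ESC than in Oct4-GFP-ESC. Summed over the 10 genes the level was 136 FPKM in DR-ESC, 203.5 in NPC(GFP-), 504.5 in Oct4-GFP-H-ESC and 541 in Oct4-GFP-ESC. The genes that were lower in both DR-ESC and NPC(GFP-) than in both stem cell libraries numbered 7 of the 10, and made up 32.4% of all genes.

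DR-ESC against Oct4-GFP-ESC sets the sorted GFP-positive cells beside the line they came from, and 7 of the 10 genes were lower in DR-ESC and 0 higher. Over all 12260 genes compared, 12.2% were lower and 2.95% higher. The lower genes were Acta2, Tagln, Cnn1, Tpm1, Thbs1, Tnc and Postn, with log2 ratios from -1.08 for Cnn1 to -4.60 for Tnc, while Ctgf was at -0.61, Tgfbi at -0.02 and Loxl2 at 0.20. The median of the 10 genes was -2.10 and that of all genes -0.29. The median of all genes became 0.41 with equal sums, and the value for Ctgf turned to 0.15 there. Acta2, Tagln, Thbs1, Tnc and Postn remained lower by 2-fold or more under all 7 alternative settings.

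In DR-ESC against Oct4-GFP-H-ESC, 6 of the 10 genes were lower and 1, Tgfbi, was higher, beside 3.91% and 3.65% of all 12128 genes. Ctgf, at -1.30, joined Acta2, Tagln, Thbs1, Tnc and Postn, and these 6 were lower under all 7 settings. Tnc was at -4.97, Thbs1 at -4.84, Acta2 at -4.05 and Postn at -2.72, but with a pseudocount of 0.1 Postn was at -5.5, below Thbs1 at -5.32 and Acta2 at -4.30. Cnn1, at -0.56, and Tpm1, at -0.81, were under the 2-fold size. Tgfbi had a log2 ratio of 1.24, which was 0.72 with a pseudocount of 5 FPKM. This comparison and the one above share the DR-ESC library, so their values are not independent. All genes had a median of -0.0044 here and the 10 genes one of -1.82, so the shift of all genes seen against Oct4-GFP-ESC was absent. The median of all genes was 0.04 with the median ratio rescaled to 0, and 0.12 with equal sums.

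The GFP-positive and GFP-negative products of the same differentiation were set against each other for 8 genes, Tnc and Postn being under 1 FPKM in both. DR-ESC were returned to stem cell medium after that differentiation, so reporter state and later culture cannot be told apart here. In DR-ESC against NPC(GFP-), 2 genes were higher and 3 lower, beside 11.6% higher and 14.2% lower of 12649 genes. Tgfbi was higher in DR-ESC with a log2 ratio of 2.11, and Cnn1 with 1.32, a value that was 0.46 with a pseudocount of 5. Thbs1, at -1.89, Loxl2, at -1.30, and Ctgf, at -1.15, were lower in DR-ESC. Acta2 was at -0.92, and was lower by 2-fold with a pseudocount of 0.1, at -1.05, and with equal sums, at -1.08. Tpm1 was at -0.24 and Tagln at -0.02, which turned to 0.05 with the abundance trend removed.

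NPC(GFP-) against Oct4-GFP-ESC describes the neural products against the starting line. Of the 10 genes, 8 were lower in NPC(GFP-) and 1 was higher, but 25.6% of all 12848 genes were lower and 15.7% higher, the largest backgrounds of the 5 comparisons. Tnc, at -4.59, Acta2, at -3.31, Postn, at -3.08, and Tagln, at -2.91, lay below the 5th percentile of all genes, which was -2.23, as did Cnn1 at -2.40. Tgfbi, at -2.12, and Thbs1, at -2.07, were lower too, and Loxl2 was higher at 1.51. Ctgf, at 0.54, was higher by 2-fold only with equal sums, at 1.52, or with the trend removed, at 1.25. Tpm1 was lower at -1.02, and 0.01 with the trend removed.

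Oct4-GFP-H-ESC was set beside Oct4-GFP-ESC to describe the sort for strong reporter signal. Of the 10 genes 1, Tgfbi, was lower at -1.26 and 0 were higher, beside 2.67% lower and 0.983% higher of 12003 genes. Tgfbi kept its sign but not the 2-fold size with the median ratio set to 0, at -0.94, or with equal sums, at -0.76. Thbs1, at 0.88, and Ctgf, at 0.69, were higher by 2-fold or more under each of the 3 scalings, between 1.10 and 1.53. Acta2, at -0.18, turned to between 0.24 and 0.47 under those scalings, so no direction is given for it. Tagln, Cnn1, Tpm1 and Postn, from -0.45 to -0.60, changed sign with equal sums, and Tagln and Tpm1 also with the trend removed.

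**Figure D2:**
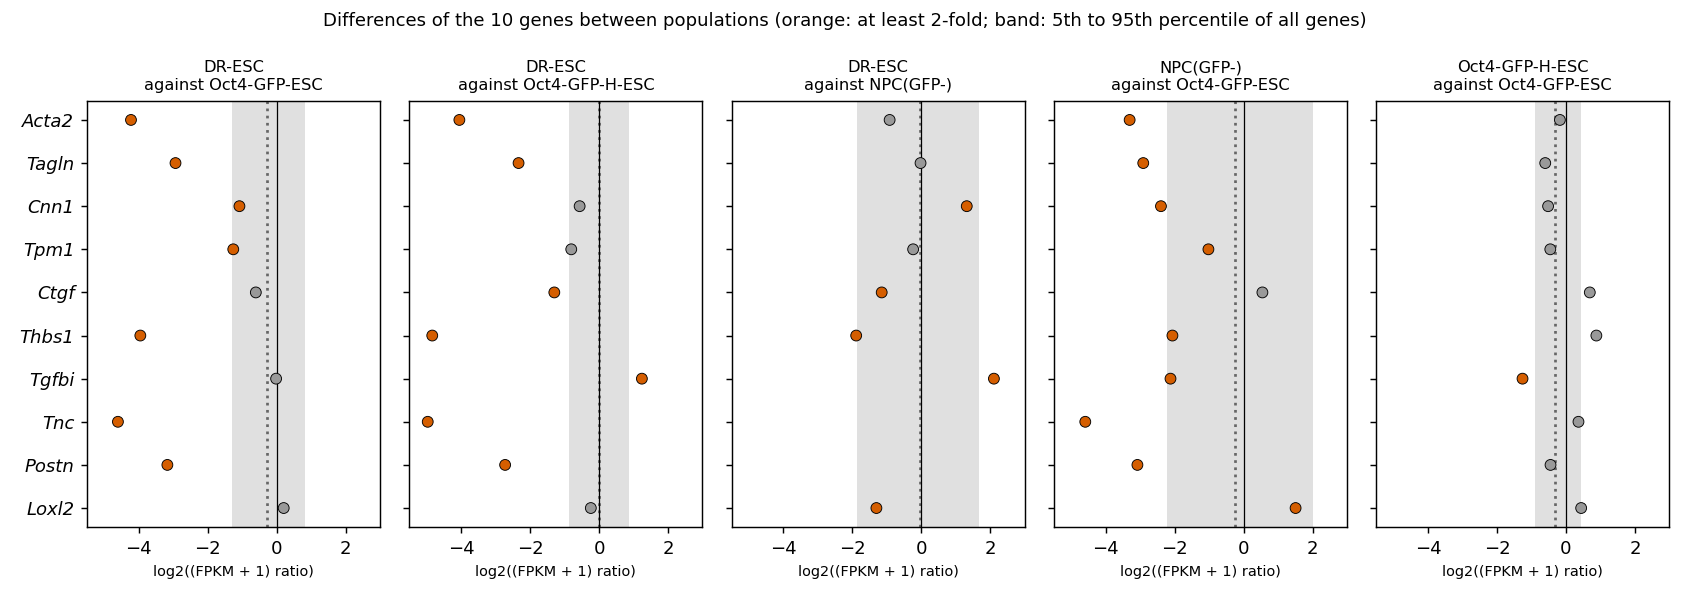
The log2((FPKM + 1) ratio) (x axis) of each of the 10 genes (rows) in 5 comparisons (panels), orange where at least 2-fold, with 1 library per population. The grey band spans the 5th to the 95th percentile of all genes and the dotted line is their median, and in DR-ESC against Oct4-GFP-ESC the points of Acta2, Tagln, Thbs1, Tnc and Postn lie left of the band, whose lower edge is at -1.30.

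Each gene belongs to a protein family, and the relatives show how much of the family's RNA the gene carries. FPKM is a level per transcript length, so levels of different genes may be set side by side. Of 30 close relatives listed, 18 have a row in the table. In DR-ESC against Oct4-GFP-ESC 15 of the 18 were lower and 0 higher (median -1.38, and 8 lower with the trend removed), and against Oct4-GFP-H-ESC 11 were lower and 0 higher (median -1.29), beside the shares of all genes given above.

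The non-muscle actins carried nearly all actin RNA. Actb had 1136 FPKM in DR-ESC, 1011 in NPC(GFP-), 1979 in Oct4-GFP-H-ESC and 2406 in Oct4-GFP-ESC. Actg1 had 843 FPKM in DR-ESC, 1028 in NPC(GFP-), 1151 in Oct4-GFP-H-ESC and 1745 in Oct4-GFP-ESC. Acta2 made up 0.219% of the RNA of the 5 actins in DR-ESC, 0.446% in NPC(GFP-), 2.72% in Oct4-GFP-H-ESC and 2.33% in Oct4-GFP-ESC. These shares do not change when all genes of a library are scaled by a common factor, but a trend with abundance could change them. Actg2, the gamma smooth muscle actin, had 0.160 FPKM in DR-ESC, 0.0635 in NPC(GFP-), 3.74 in Oct4-GFP-H-ESC and 4.35 in Oct4-GFP-ESC, high in both stem cell libraries as Acta2 was, but lowest in NPC(GFP-). Actin genes are alike in sequence, and how reads that fit several of them were assigned is not given in the sources used here.

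Transgelins and calponins differed among themselves. Tagln held 21.8% of the RNA of the 3 transgelins in DR-ESC, 16.2% in NPC(GFP-), 34.9% in Oct4-GFP-H-ESC and 38.2% in Oct4-GFP-ESC. Tagln3, the neuronal transgelin, reached 39.5 FPKM in NPC(GFP-) but no more than 1.76 elsewhere, while Tagln2, the widely expressed one, had 56.5 FPKM in DR-ESC, 45.5 in NPC(GFP-), 158 in Oct4-GFP-H-ESC and 208 in Oct4-GFP-ESC. Cnn1 held from 0.190% to 2.20% of calponin RNA. Cnn3, the calponin of non-muscle and neural cells, had 130.1 FPKM in DR-ESC, 163 in NPC(GFP-), 143 in Oct4-GFP-H-ESC and 192 in Oct4-GFP-ESC, and took most of it in every library.

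Tropomyosins and lysyl oxidases gave contrasting shares. Tpm1 held 24.2% of tropomyosin RNA in DR-ESC, 24.0% in NPC(GFP-), 27.9% in Oct4-GFP-H-ESC and 26.9% in Oct4-GFP-ESC, so its share was near level in all 4 libraries. Loxl2 held 87.8% of lysyl oxidase RNA in DR-ESC, 93.7% in NPC(GFP-), 36.7% in Oct4-GFP-H-ESC and 37.3% in Oct4-GFP-ESC. Lox, Loxl1, Loxl3 and Loxl4 were all lower in DR-ESC than in both stem cell libraries, in contrast to Loxl2. Lox, the founding collagen crosslinking enzyme, had 0.163 FPKM in DR-ESC, 0.0722 in NPC(GFP-), 18.4 in Oct4-GFP-H-ESC and 6.69 in Oct4-GFP-ESC. Loxl3 had 0.775 FPKM in DR-ESC and 9.74 in the starting line, and Loxl1 had 1.43 FPKM in DR-ESC and 7.26 in the starting line. Cyr61, the CCN relative of Ctgf and also a YAP target, had 18.6 FPKM in DR-ESC, 39.0 in NPC(GFP-), 59.3 in Oct4-GFP-H-ESC and 51.0 in Oct4-GFP-ESC, lowest in DR-ESC as Ctgf was.

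**Figure D3:**
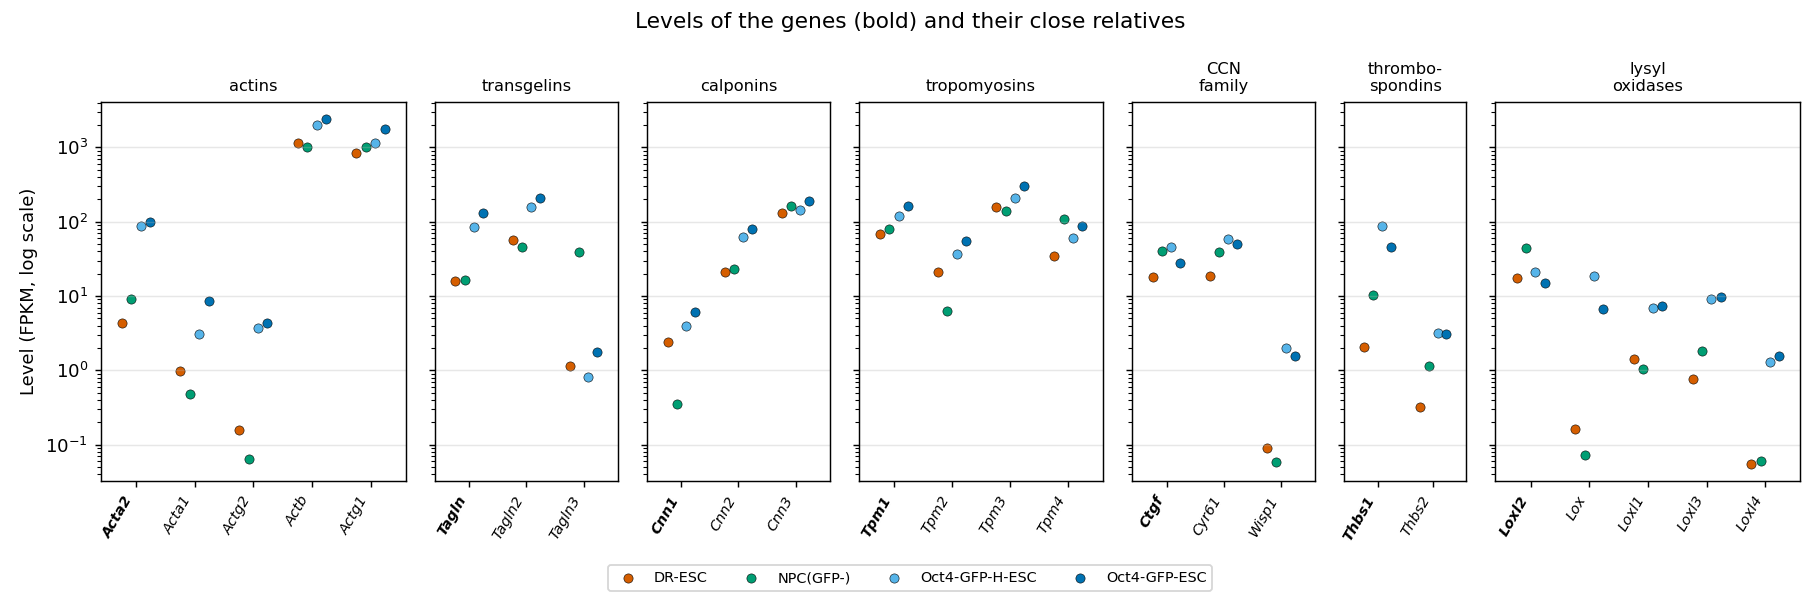
Level in FPKM (y axis, log scale) of 7 of the 10 genes and their families: bold names mark the genes described here and the others are their close relatives, with 1 point per library coloured DR-ESC, NPC(GFP-), Oct4-GFP-H-ESC and Oct4-GFP-ESC. Tpm1 keeps a near level share of tropomyosin RNA, and Loxl2 is the only lysyl oxidase above 2 FPKM in DR-ESC.

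Of 34 other TGF-beta and SMAD target genes compared in DR-ESC against Oct4-GFP-ESC, 13 were lower and 1 higher (median -0.52), and 10 were lower and 3 higher with the abundance trend removed (median -0.03). Without that removal 12.2% of all genes were lower and 2.95% higher, and the same shares stand beside the counts of the next lists. Timp1, an inhibitor of matrix proteases, had 9.18 FPKM in DR-ESC, 1.89 in NPC(GFP-), 48.3 in Oct4-GFP-H-ESC and 72.8 in Oct4-GFP-ESC, with the stem cell libraries high as for Tnc. On the other side, Skil, a SMAD-binding repressor that the pathway induces, had 21.2 FPKM in DR-ESC, 6.40 in NPC(GFP-), 12.9 in Oct4-GFP-H-ESC and 11.8 in Oct4-GFP-ESC, highest in DR-ESC but under the 2-fold size against both stem cell libraries. Ndrg1, a stress-responsive gene, had 21.0 FPKM in DR-ESC against 2.92 in Oct4-GFP-H-ESC and 4.96 in Oct4-GFP-ESC, the 1 gene of the list higher by 2-fold against Oct4-GFP-ESC.

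Of 13 genes of TGF-beta ligands, receptors and SMADs compared with Oct4-GFP-ESC, 4 were lower in DR-ESC and 0 higher (median -0.55). With the trend removed 3 were lower and 1 higher (median -0.52). The ligand gene Tgfb1 had 0.575 FPKM in DR-ESC, 0.390 in NPC(GFP-), 4.28 in Oct4-GFP-H-ESC and 8.67 in Oct4-GFP-ESC. Its log2 ratio of DR-ESC to Oct4-GFP-ESC, -2.62, was the lowest of the list. Ltbp4, which holds latent TGF-beta in the matrix, had 16.1 FPKM in DR-ESC, 7.59 in NPC(GFP-), 38.9 in Oct4-GFP-H-ESC and 37.4 in Oct4-GFP-ESC. Smad3, a receptor-activated SMAD, had 8.31 FPKM in DR-ESC, 16.2 in NPC(GFP-), 3.14 in Oct4-GFP-H-ESC and 3.90 in Oct4-GFP-ESC. Its log2 ratio in DR-ESC was 1.17 against Oct4-GFP-H-ESC and 0.93 against Oct4-GFP-ESC.

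Among 24 actin-binding and smooth muscle genes compared with Oct4-GFP-ESC, 6 were lower in DR-ESC and 0 higher (median -0.56), and 2 were lower and 1 higher with the trend removed (median -0.02). Myl9, the regulatory light chain of smooth muscle myosin, had 6.43 FPKM in DR-ESC, 10.1 in NPC(GFP-), 29.0 in Oct4-GFP-H-ESC and 34.5 in Oct4-GFP-ESC, the lowest ratio of the list at -2.26. Among 24 genes of the SRF, MRTF and YAP pathways, which drive contractile genes, 6 were lower and 2 higher (median -0.05), and 3 were lower and 2 higher with the trend removed (median 0.17). Egr1 and Fos, immediate early genes under SRF control, were the higher ones, Egr1 with 55.5 FPKM in DR-ESC and 20.4 in the starting line, and Fos with 40.3 FPKM in DR-ESC and 19.3 in the starting line. Axl, a receptor kinase and YAP target, had 0.518 FPKM in DR-ESC, 1.72 in NPC(GFP-), 12.4 in Oct4-GFP-H-ESC and 11.9 in Oct4-GFP-ESC.

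Fibroblast markers were lower in DR-ESC in most cases, as Acta2, Tagln, Thbs1, Tnc and Postn were. Of 24 markers, none of them among the genes described, DR-ESC had 18 at a lower level than the starting line and 0 at a higher one (median -2.24), and 18 were lower and 1 higher against Oct4-GFP-H-ESC (median -1.98). Their summed level was 379.6 FPKM in DR-ESC, 1793 in NPC(GFP-), 1112 in Oct4-GFP-H-ESC and 1467 in Oct4-GFP-ESC, and S100a4 was listed at 0 in DR-ESC and NPC(GFP-). Vim and Sparc, which neural progenitors also express, make most of the sum in NPC(GFP-). Without them the sum over 22 markers was 143 FPKM in DR-ESC, 116 in NPC(GFP-), 691 in Oct4-GFP-H-ESC and 859 in Oct4-GFP-ESC. All 24 markers reached 1 FPKM in both stem cell libraries, although Oct4-GFP-H-ESC was gated for strong reporter signal, against 13 in DR-ESC and 12 in NPC(GFP-). The part of feeder fibroblast RNA in the differences of the 10 genes was not tested.

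Within the range of the fibroblast markers the 10 genes took different places. In DR-ESC against Oct4-GFP-ESC, where the markers ran from -6.58 to 0.70, the ratios of Tnc, Acta2 and Thbs1 were undercut by 5 markers and those of Tagln and Postn by 6. Ctgf lay above 21 of the 24 markers, and Tgfbi and Loxl2 above 23. In Oct4-GFP-H-ESC over the starting line the markers ran from -0.76 to 0.63, with Tgfbi below all 24 and Thbs1 and Ctgf above all 24. Markers of other cell types were counted in the same way. DR-ESC had 6 of 8 neural progenitor markers at a higher level and 0 at a lower one (median 1.86), with a summed level of 124.6 FPKM in DR-ESC and 48.3 in the starting line. Of 10 pluripotency markers 5 were lower and 0 higher, and 1 was lower and 1 higher with the trend removed. Of 6 neuron markers 3 were lower and 0 higher. Of 5 endothelial markers 0 were lower in DR-ESC than in the starting line and 1 higher, and their sums lay between 8.84 FPKM in NPC(GFP-) and 34.5 in Oct4-GFP-H-ESC. Blood and macrophage markers had 2 rows, Cd68 and Lyz2, with Lyz2 listed at 0 in DR-ESC and NPC(GFP-), at 5.06 FPKM in Oct4-GFP-H-ESC and at 5.84 in Oct4-GFP-ESC. Of 9 mesoderm and cardiac markers 3 were lower in DR-ESC and 0 higher, as were 3 of 5 trophoblast markers, 1 of 6 endoderm markers and 1 of 3 neural crest markers. The part of these cell types in the differences of the 10 genes was not tested.

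**Figure D4:**
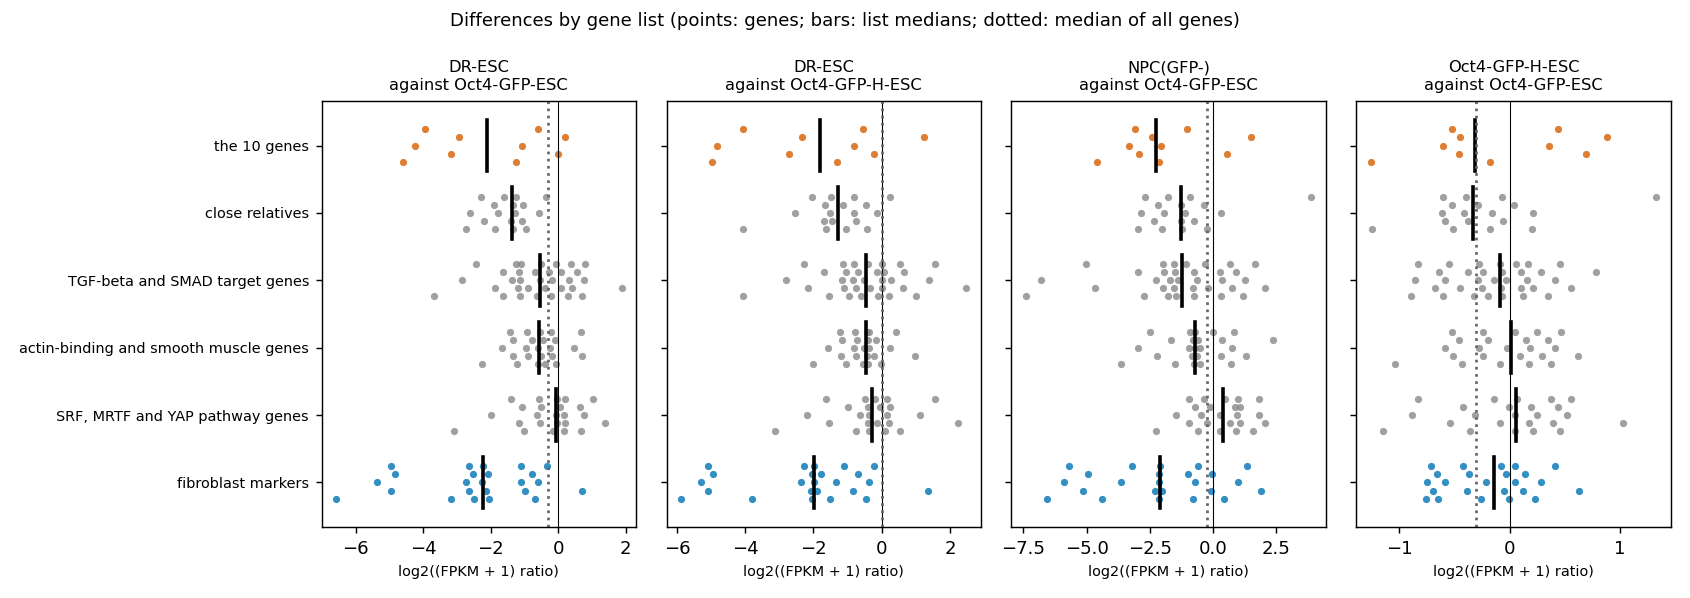
The log2((FPKM + 1) ratio) (x axis, scaled per panel) of every compared gene (points) of 6 gene lists (rows) in 4 comparisons (panels), with a bar at each list's median and a dotted line at the median of all genes. In DR-ESC against Oct4-GFP-ESC the median of the 10 genes, -2.10, and that of the fibroblast markers, -2.24, lie left of the other lists, and in Oct4-GFP-H-ESC over the starting line no fibroblast marker reaches the 2-fold size.

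Likeness of pattern was measured as the root mean square difference between log2(FPKM + 1) profiles over the 4 libraries, each taken relative to its own mean, and the 3 nearest genes with at least 5 FPKM in some library were taken for each gene. With 4 libraries many genes lie close together, and these are descriptions. For genes under 1 FPKM in some library, such as Tnc, Postn, Ccl7 and Lyz2, the profile depends on the added 1. Nearest to Tnc were Emp1 (0.149), Col1a1 (0.151) and Igfbp7 (0.187). Nearest to Acta2 were Cd44 (0.307), Cav1 (0.355) and Ccl2 (0.422), and to Thbs1 Cd44 (0.553), Csf1 (0.598) and Axl (0.605), so that no gene came as close to Thbs1 as those near Tnc did. Nearest to Tagln were Ccl7 (0.053), Gsto1 (0.115) and Lyz2 (0.154), and to Postn Lmna (0.114), Ccl7 (0.138) and Lyz2 (0.148).

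The other genes had different neighbours. Loxl2 was nearest to Fndc3b (0.035) and Lats2 (0.075), a kinase of the YAP pathway. After a row that merges BC024139 and Eppk1 (0.12), Ctgf was nearest to Slc26a2 (0.144) and Amotl2 (0.149), a YAP target. Tgfbi was nearest to Aldoa (0.151), Adck5 (0.185) and Mov10 (0.187). Cnn1 was nearest to Got1 (0.027) and Tpm1 to Lrrc59 (0.026). Among the 10 genes themselves Tagln and Postn were closest (0.152), and Tnc and Loxl2 farthest apart (2.75).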

How the data were processed

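The authors deposited 1 table of log2 values, log2(FPKM + 1), for 4 poly(A) RNA libraries, 1 per population; 10 ChIP and input samples were not used here. This form was read from the values, since undoing it leaves numbers with at most 6 significant digits for 99.7% of non-zero values (relative tolerance 1e-09). Per the submitters' processing notes, the tools were TopHat2 2.0.9, Bowtie 0.12.8, CASAVA 1.8, DESeq2 and HTSeq and the build mm10, with no roles. The FPKM program, strand use and any further scaling are not stated. Of 13199 rows, 19 with dates as symbols were left out.

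For each of 5 comparisons, log2((FPKM + 1) ratio) was taken wherever a gene reached 1 FPKM in at least 1 of the pair. Values below that are understated by the pseudocount of 1. Counts need a size of 2-fold. The 10 genes and the lists were chosen with earlier results of these data known. All 10 genes are named, with the 3 most abundant and the 2 highest and 2 lowest genes of each list and all close relatives; not all are printed. Names and coordinates come from RefSeq GRCm38.p6, in which 10 of the 10 genes matched by symbol or synonym. The trend alternative subtracts the median of the 401 genes nearest in mean level. Python 3.11.15, numpy 2.4.6, pandas 2.3.3 and matplotlib 3.10.9 were used, and the ratio and count steps were tested on simulated data.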

Additional observations from a re-analysis of the deposited data

How the results depend on the processing

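The 10 genes give 48 ratios in 5 comparisons, recomputed under 7 alternatives (pseudocounts of 0.1 and 5 FPKM, no minimum or 5 FPKM, the median ratio rescaled to 0, equal sums, and the abundance trend removed). Of 334 recomputed ratios, 307 kept their side of the 2-fold size and 27 did not, 10 of them with equal sums. A called ratio changed sign once: Tpm1 in NPC(GFP-) against Oct4-GFP-ESC was 0.0107 with the trend removed. With a pseudocount of 5, 0 genes were higher in DR-ESC than in Oct4-GFP-H-ESC, 1 was higher in DR-ESC than in NPC(GFP-), and 0 were lower in Oct4-GFP-H-ESC than in the starting line. With a minimum of 5 FPKM, 1 was higher in DR-ESC than in NPC(GFP-), because Cnn1 was no longer compared. In NPC(GFP-) against Oct4-GFP-ESC, 2 were higher with equal sums and 2 with the trend removed. In Oct4-GFP-H-ESC over the starting line, 2 were higher with the median ratio set to 0, 4 with equal sums and 2 with the trend removed, and 0 were lower with the median ratio set to 0 or equal sums. The scalings shift every gene of a library; no other cause was tested. The remaining counts stayed within 1.5 times, and the 7 genes lower in DR-ESC than the starting line became 5 to 7. No paired analysis was possible because each population has 1 library. Read depth is unknown, so the lowest levels, such as Postn in DR-ESC, have no counting error attached.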
